A study of Mus musculus with 26 samples.

Results

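Induced pluripotent stem cell lines (iPSC) that had been made from mouse germline stem cells were compared here with germline stem cell lines (GSC), for genes and pathways beyond the pluripotency network and the germ cell programme. The members were chosen by their labels: 4 iPSC lines with 8 arrays and 2 GSC lines with 4 arrays, 6 of the 13 lines and 12 of the 26 arrays of the series. Both groups carry the OG2 strain background, as do all other lines of the series. The design text calls the lines independent and the paired arrays, a and b, technical. The labels give neither the factors nor the delivery used for reprogramming, neither the medium nor the passage, and do not say which GSC line each iPSC line came from. Total RNA was amplified to biotinylated cRNA and hybridised to Illumina bead arrays, on which each probe's brightness reports 1 transcript. Values of the a and b array were averaged first, and every value and test below refers to lines, not arrays.

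Germline stem cells are cultured spermatogonial cells of the male germ line. They self-renew, depend on the growth factor GDNF acting through the receptor RET, and are committed to sperm. Pluripotent cells divide with short gap phases and carry a characteristic metabolism: they use one-carbon units from glycine and threonine, make nucleotides at a high rate and feed both glycolysis and the mitochondrion. They also grow as compact epithelial colonies, while germline stem cells form loose clusters. Entry into pluripotency therefore touches metabolism, the cell cycle, adhesion, signalling and stress handling besides the identity genes.

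All levels below are log2 intensities after background correction and quantile normalisation, on a scale where the lowest detected signal of an array lay between 4.56 and 4.81. Values of different genes come from different probes and are not comparable in level. A gene was called when limma's adjusted p (Benjamini-Hochberg over 10660 genes, two-sided) was below 0.05 and the difference was at least 2-fold. Of the 10660 genes tested, 22.8% were called, 11.1% higher and 11.7% lower in iPSC than in GSC, and the median log2 difference over all genes was -0.02. The line values of iPSC and GSC did not overlap for 63.2% of all genes, so that non-overlap alone says little in 4 lines against 2. Outside the pluripotency and germline lists, 269 of the 270 called members of the gene lists did not overlap. Where non-overlap is stated for a called gene below, it therefore adds little to the call.

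The labels were first set against markers. Of 28 pluripotency genes tested, 23 were called higher in iPSC and 1, Stat3, lower. The mean level of the 28 was 9.50 to 10.10 in the iPSC lines, against 6.58 and 6.60 in the GSC lines. Of 31 germline genes, 19 were called lower and 3 higher, with a mean level of 6.15 to 6.65 in iPSC and 8.54 and 8.59 in GSC. Markers of fibroblasts and feeder cells had a mean level of 5.29 to 6.70 in iPSC, 6.16 and 6.54 in GSC and 9.47 in the fibroblast line of the series. Of 7 markers of testis somatic cells tested, 1 was called higher and 1 lower (median -0.02), 28.6% against 22.8% of all genes. Their mean level was 5.11 to 5.26 in iPSC and 5.56 and 5.59 in GSC. The one called lower was Wt1, a transcription factor of Sertoli cells, at 4.59, 5.40, 4.95 and 4.77 in iPSC, against 9.20 and 8.78 in GSC (-4.07 ± 0.44). Clu, also made by Sertoli cells, was called higher at 1.86 ± 0.54, but not without GSC 1 (1.78, adjusted p = 0.113) or GSC 2 (1.93, adjusted p = 0.0886), nor with quantile normalization (1.06, adjusted p = 0.0663) or the line number as a block (1.61, adjusted p = 0.0636). Sox9 of that list was detected on no iPSC array and on 3 of 4 GSC arrays. The part of such cells in the results was not tested. The iPSC lines were not equally close: iPSC 3 lay 0.515 (root mean square log2 difference over all genes) from the mean of the other iPSC lines. This distance was 0.449 for iPSC 2, 0.277 for iPSC 1 and 0.278 for iPSC 4. In the gPSC group, the other germline-derived pluripotent lines of the series, it was 0.582, 0.372, 0.593 and 0.322 for gPSC 1 to 4. The fibroblast marker level was lowest in iPSC 3, at 5.29. The line gPSC 3 shared some extreme values of iPSC 3, given with the genes that vary most between lines. Without iPSC 3, 1193 genes were called higher and 1256 lower, against 1188 and 1244 with it. Median raw intensities were 89.17 to 93.24 on the iPSC arrays, against 100.6 and 101.4 on the a arrays and 90.11 and 93.59 on the b arrays of GSC. From the b arrays alone, 1187 genes were called higher and 1231 lower.

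**Figure D1:**
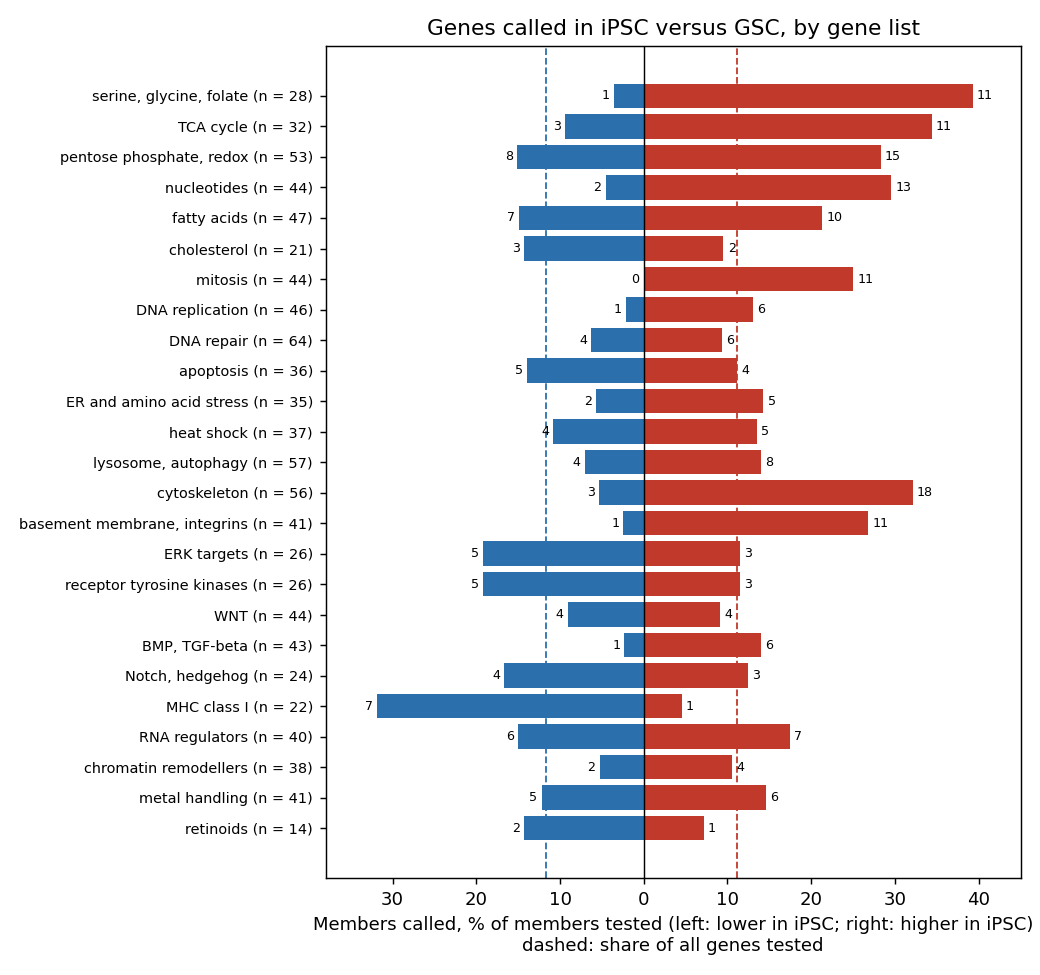
Share of the tested members of each gene list that were called in iPSC (4 lines) versus GSC (2 lines), in percent, with those lower in iPSC to the left and those higher to the right; bar labels give the number of genes. Dashed lines mark the shares over all genes tested (11.7% lower, 11.1% higher). Furthest to the right extend the TCA cycle, the cytoskeleton and the serine, glycine and folate list, which also holds polyamine, methionine and cysteine genes. MHC class I presentation extends furthest to the left.

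The one-carbon list holds genes of serine, glycine, threonine and folate metabolism, which supplies one-carbon units for nucleotides and methylation. It also holds neighbouring genes of polyamine synthesis, methionine turnover and cysteine synthesis. Of 28 tested members, 11 were called higher and 1 lower, 42.9% against 22.8% of all genes. Without iPSC 1, 2 were called lower, and this count also moved without GSC 1. The 11 include Odc1, Srm, Mtap, Cth, Cbs and Ahcy, which do not themselves supply one-carbon units. The list's median log2 difference was 0.64. Folr1, a folate receptor that carries folate into the cell, was at 8.57, 8.28, 9.05 and 8.38 in iPSC 1 to 4, against 4.40 and 4.32 in the GSC lines. It was not detected on any GSC array, and was at least 15.6-fold higher in iPSC (adjusted p = 3.33e-05). Mthfd1, the cytosolic enzyme that interconverts folate-bound one-carbon units, was at 9.91, 9.89, 9.87 and 9.81 in iPSC and at 6.86 and 7.41 in GSC. All iPSC lines lay above both GSC lines, by a log2 difference of 2.74 ± 0.16 (SE, adjusted p = 2.69e-06). Gldc, the glycine decarboxylase of the glycine cleavage system, rose by 2.15 ± 0.22.

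The enzymes that make serine did not move together. Psat1, the second enzyme of serine synthesis, rose by 1.38 ± 0.30. Phgdh, which commits glycolytic carbon to serine, was at 8.51, 8.50, 7.58 and 8.24 in iPSC and at 9.12 and 9.05 in GSC, a log2 difference of -0.88 ± 0.31 that is below 2-fold (adjusted p = 0.0447). The serine hydroxymethyltransferase genes went in opposite directions: Shmt1, the cytosolic form, fell by 1.56 ± 0.28, while Shmt2, the mitochondrial form, was called at 1.13 ± 0.32 with its brightest probe but not with its other one (-0.05). The call of Shmt2 ended without GSC 1 (1.22, adjusted p = 0.0694), GSC 2 (1.05, adjusted p = 0.108) or iPSC 2 (0.93). Mthfd2, a mitochondrial folate enzyme, was not called (0.43 ± 0.27, adjusted p = 0.236). Odc1, the rate-limiting enzyme of polyamine synthesis, was at 11.76, 12.27, 11.67 and 11.56 in iPSC, against 9.54 and 9.40 in GSC. Its difference was 2.35 ± 0.24 (adjusted p = 6.08e-05). Srm, which makes spermidine, was called at 1.66 ± 0.42, but not without GSC 1 (1.61, adjusted p = 0.0687) or GSC 2 (1.70, adjusted p = 0.0566). Cth, which makes cysteine from cystathionine, rose by 2.76 ± 0.34.

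Nucleotide synthesis and salvage had 13 of 44 members called higher and 2 lower, 34.1% against 22.8% of all genes. The list's median log2 difference was 0.52, and without GSC 1, 1 member was called lower. Rrm2, the regulated subunit of ribonucleotide reductase, which makes the building blocks of DNA, was at 9.15, 9.18, 8.27 and 9.28 in iPSC, against 5.43 and 5.62 in GSC. All iPSC lines were above both GSC lines, with iPSC 3 the lowest of them, and the difference was 3.44 ± 0.26 (adjusted p = 1.14e-05). Prps2, which makes the ribose donor for purines and pyrimidines, rose by 2.76 ± 0.35. Upp1, a uridine phosphorylase that releases ribose from uridine, rose by 3.57 ± 0.55. Hprt and Paics, of purine salvage and purine synthesis, rose by less (1.15 ± 0.11 and 1.20 ± 0.14). Paics was not called with the b arrays alone or with quantile normalization without background correction, while Hprt kept its call under all 18 alternatives. Ampd2, which deaminates AMP, was at 5.53, 5.99, 5.57 and 5.65 in iPSC and at 7.54 and 7.89 in GSC, a fall of 2.03 ± 0.21 on the log2 scale.

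In the tricarboxylic acid cycle and its feeder reactions, 11 of 32 members were called higher and 3 lower (median 0.32). The share called was 43.8%, against 22.8% of all genes. The largest difference was that of Idh2, the mitochondrial NADP-dependent isocitrate dehydrogenase. Its levels were 10.47, 10.04, 10.99 and 10.54 in iPSC, against 5.49 and 6.14 in GSC, and the difference was 4.70 ± 0.39 (25.9-fold, adjusted p = 2.04e-05). Idh3a, a subunit of the NAD-dependent enzyme of the cycle itself, rose by 1.99 ± 0.37. Enzymes that pass carbon between amino acids and the cycle rose as well: Got1 by 2.53 ± 0.26, Glud1 by 1.87 ± 0.17 and Gpt2 by 1.68 ± 0.25.

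Entry of pyruvate into the cycle showed genes of opposing action. Pdha1, the catalytic subunit of pyruvate dehydrogenase, was at 10.26, 10.25, 9.87 and 10.19 in iPSC, against 8.31 and 8.29 in GSC, a rise of 1.85 ± 0.15. The kinases that inactivate this enzyme also rose, Pdk1 by 1.53 ± 0.23 and Pdk4, which no GSC array detected, by a fitted 2.28 ± 0.37. The phosphatase that reactivates it, Pdp1, was at 4.96, 5.40, 5.14 and 5.33 in iPSC and at 7.16 and 7.31 in GSC, and fell by 2.03 ± 0.18. All iPSC values of Pdp1 were below both GSC values.

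The pentose phosphate and antioxidant list had 15 of 53 members called higher and 8 lower (median 0.56), 43.4% against 22.8% of all genes. Without GSC 1, 9 were called higher. Within the non-oxidative branch of the pentose phosphate pathway, Tkt and Rpia went opposite ways. Tkt, the transketolase, was at 11.25, 11.26, 10.99 and 11.28 in iPSC, against 8.69 and 8.61 in GSC (2.55 ± 0.14, adjusted p = 1.29e-06; a second, dim probe gave 0.42). Rpia, which makes ribose 5-phosphate, was at 6.64, 6.66, 6.60 and 6.66 in iPSC, against 9.44 and 9.37 in GSC (-2.76 ± 0.10, adjusted p = 2.9e-07). Neither gene had overlapping groups, and the iPSC values of Rpia spanned 6.60 to 6.66.

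Glutathione S-transferases, which couple glutathione to electrophiles, went in both directions. Gsta4 rose by 3.48 ± 0.14 and Gstm2 by 3.37 ± 0.37. Gstm5 was at 6.82, 7.03, 7.62 and 7.48 in iPSC and at 10.67 and 10.66 in GSC, a fall of 3.43 ± 0.25. Gsto1 and Gsto2, of the omega class, fell by 1.66 ± 0.27 and 2.82 ± 0.24. The mu-class genes Gstm1, Gstm2, Gstm5 and Gstm6 are close paralogs, and probes on such arrays may not separate them fully. The thioredoxin pair rose: Txn1 was at 9.91, 10.11, 10.48 and 10.55 in iPSC and at 7.74 and 7.93 in GSC (2.43 ± 0.25), and its reductase gene Txnrd1 rose by 1.85 ± 0.31. Nfe2l2, which encodes NRF2, the transcription factor of the antioxidant response, was not called (0.76 ± 0.40, adjusted p = 0.159).

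Fatty acid metabolism had 10 of 47 members called higher and 7 lower (median 0.12), 36.2% against 22.8% of all genes. Fabp3, a fatty acid carrier, was at 11.79, 10.59, 12.50 and 12.27 in iPSC, against 6.45 and 6.96 in GSC (5.08 ± 0.88, adjusted p = 0.00133). Elovl6, which lengthens palmitate to stearate, rose by 3.37 ± 0.23. The genes called lower were Dgat2, Acss2, Acsl3, Acadvl, Hadhb, Dgat1 and Elovl5, which act in storage, activation, oxidation and elongation. Dgat2, which makes triglycerides, was at 6.25, 6.12, 7.34 and 5.50 in iPSC, against 10.02 and 9.98 in GSC (-3.70 ± 0.45, adjusted p = 0.00019), and Dgat1, its partner enzyme, fell by 1.22 ± 0.11. Acss2, which makes acetyl-CoA from acetate in the cytosol, fell by 2.35 ± 0.52, while Acss1, its mitochondrial counterpart, rose by 1.45 ± 0.30. The cholesterol list was split, with 2 of 21 members higher and 3 lower, 23.8% against 22.8% of all genes. Srebf2, the master transcription factor of cholesterol synthesis, fell by 1.33 ± 0.23.

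**Figure D2:**
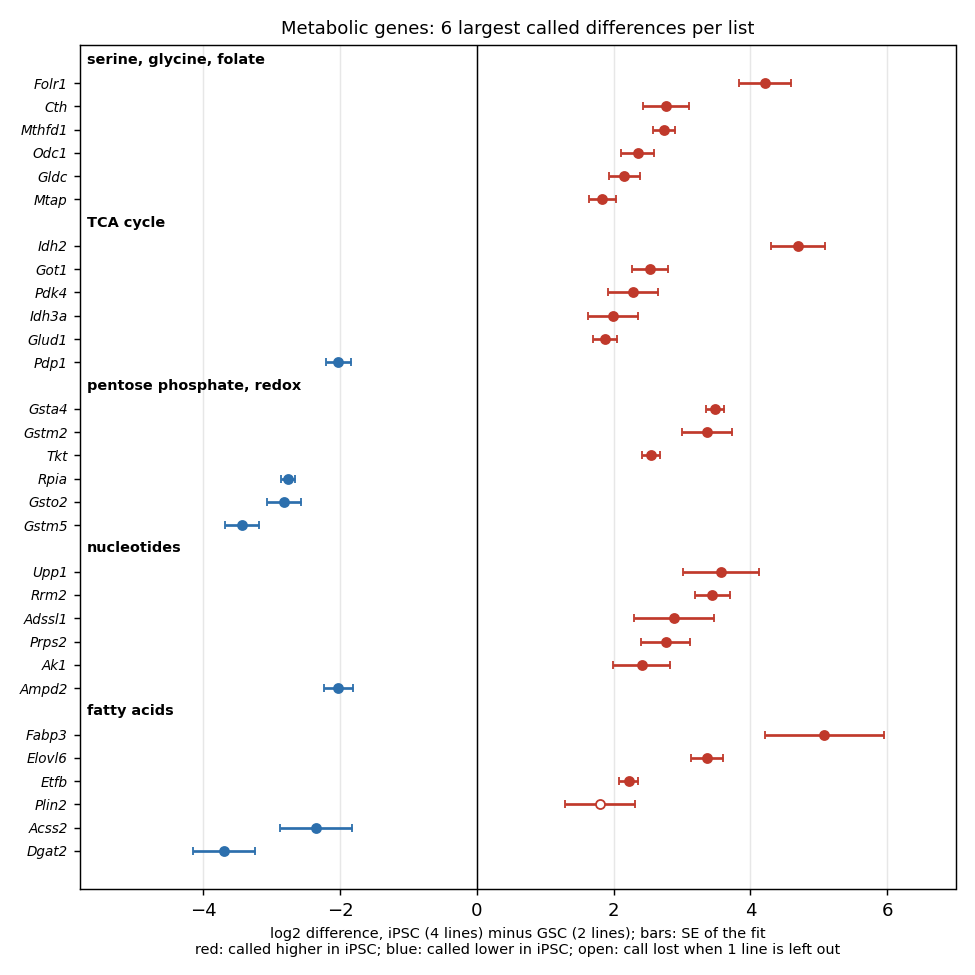
The 6 largest called differences in each of 5 metabolic lists, as the log2 difference iPSC minus GSC with the standard error of the fit (4 lines against 2). Rises in iPSC lie right of 0 and falls left of it: Idh2 (4.70) and Fabp3 (5.08) lie furthest right and Dgat2 (-3.70) furthest left, and the open symbol, Plin2, lost its call when 1 line was left out.

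Branched-chain amino acid use was represented by Bcat1, the cytosolic transaminase of leucine, isoleucine and valine, among the 12 genes with the largest rise outside the pluripotency and germline lists. It was at 10.45, 10.82, 9.89 and 9.75 in iPSC, against 4.36 and 4.59 in GSC, where 1 of 4 arrays detected it. The difference was 5.75 ± 0.32 (adjusted p = 1.83e-06), or 5.60 with GSC values raised to the detection floor.

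In the list of the unfolded protein response and protein folding in the endoplasmic reticulum, Asns and Chac1 had the largest rises. Of 35 tested members 5 were called higher and 2 lower (median -0.11), a share of 20% against 22.8% of all genes; without iPSC 3, 4 were called lower. The genes called higher were Asns, Chac1, Vldlr, Atf4 and Sesn2. ATF4 is the transcription factor of the amino acid response, and Asns and Chac1 are known targets of it; Atf3 and Trib3, also known targets, were not called. Asns, the asparagine synthetase, was at 12.21, 12.22, 12.43 and 12.33 in iPSC and at 9.29 and 9.07 in GSC (3.11 ± 0.28, adjusted p = 3.32e-05). Chac1, which degrades glutathione, was at 8.46, 8.18, 8.20 and 8.31 in iPSC and at 5.59 and 5.42 in GSC (2.79 ± 0.44). Atf4 itself was at 8.17, 8.08, 8.50 and 8.46 in iPSC and at 6.55 and 6.47 in GSC (1.79 ± 0.14). In each of these genes every iPSC line was above both GSC lines. Hspa5, the main chaperone of the endoplasmic reticulum, was higher by less than 2-fold (0.66 ± 0.14, adjusted p = 0.00447; 1.14 and called on the a arrays alone), and Ddit3, which encodes the stress factor CHOP, was not called (0.77 ± 0.64, adjusted p = 0.369).

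Promoters of Asns, Chac1 and Vldlr are shown because these members were called higher and hold the letters of a short element that ATF4 dimers bind. The windows, from RefSeq promoters of build GRCm38.p6, were searched on both strands for TGATGNAAN, with N any base; the match is in capitals.
Asns, chr6:7693210-7693329, minus strand: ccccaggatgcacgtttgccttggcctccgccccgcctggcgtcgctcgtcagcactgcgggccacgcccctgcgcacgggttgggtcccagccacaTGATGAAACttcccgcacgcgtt
Chac1, chr2:119351028-119351147, plus strand: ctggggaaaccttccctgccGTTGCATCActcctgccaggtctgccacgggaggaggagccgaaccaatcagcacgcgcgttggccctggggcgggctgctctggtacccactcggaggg
Vldlr, chr19:27216799-27216918, plus strand: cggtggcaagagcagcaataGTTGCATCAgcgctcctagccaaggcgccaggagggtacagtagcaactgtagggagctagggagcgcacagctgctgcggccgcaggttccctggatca
In Asns the match reads along the gene's strand, and in Chac1 and Vldlr it lies on the other strand. The letters occurred in 3.95% of 32851 promoter windows and in 3.14% of the 8630 tested genes with a window, against 3 of the 5 list members called higher. Among the other 27 members with a window, 3 held a match (Herpud1, Atf3 and Trib3), and none of these was called. A match describes letters in the window and not a bound site.

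Of 44 mitotic genes, limma called 11 higher in iPSC and 0 lower, with a median of 0.57. The share called was 25%, all higher, against 22.8% of all genes, 11.1% higher and 11.7% lower. At an unadjusted p below 0.05, 22 mitotic genes were above 0 and 3 below it, among them Cdc25b, a phosphatase that activates CDK1 (-0.68 ± 0.21, less than 2-fold). The genes called were Ube2c, Cdk1, Plk1, Sgo1, Aurka, Tpx2, Cdc25a, Birc5, Zwilch, Mad2l1 and Spc24, of which Zwilch, Mad2l1 and Spc24 were no longer called without GSC 2 (1.00, 0.83 and 0.79). Zwilch also lost its call without iPSC 1, and Spc24 without iPSC 2, iPSC 3 or iPSC 4. Plk1, a kinase that drives entry into and passage through mitosis, was at 10.48, 10.37, 10.62 and 10.82 in iPSC, against 9.01 and 8.67 in GSC (1.73 ± 0.25, adjusted p = 0.000464). Cdk1, the mitotic cyclin-dependent kinase, rose by 1.86 ± 0.19 with its brightest probe, while a second probe near background gave 0.04; with the mean of both probes the difference was 0.95 and no longer a call. Ube2c, the ubiquitin-conjugating enzyme of the anaphase-promoting complex, was at 7.77, 7.08, 6.48 and 7.16 in iPSC and at 5.22 in both GSC lines (1.90 ± 0.28). With the b arrays alone, 8 mitotic genes were called higher.

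DNA replication genes moved less, with 6 of 46 members called higher and 1 lower (median 0.20), 15.2% against 22.8% of all genes. Mcm2, a subunit of the replicative helicase, was at 10.06, 10.56, 9.78 and 10.09 in iPSC, against 10.16 and 10.46 in GSC, so the groups overlapped (-0.18 ± 0.19, adjusted p = 0.478). Orc5, of the origin recognition complex, rose by 1.79 ± 0.15 and Rpa2, a single-strand binding protein, fell by 1.44 ± 0.18. Among 64 DNA repair genes, 6 were called higher and 4 lower, 15.6% against 22.8% of all genes; the damage kinase gene Atm fell by 1.48 ± 0.20 and Msh6, of mismatch repair, rose by 1.17 ± 0.13.

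The cell cycle genes homology region, a promoter element of many mitotic genes, was searched as TTTGAA on both strands, to show where the letters lie in 2 of the mitotic genes that rose.
Cdk1, chr10:69352913-69353032, minus strand: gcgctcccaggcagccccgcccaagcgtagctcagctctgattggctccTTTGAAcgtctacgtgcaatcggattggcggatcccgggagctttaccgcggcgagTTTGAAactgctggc
Ube2c, chr2:164769809-164769928, plus strand: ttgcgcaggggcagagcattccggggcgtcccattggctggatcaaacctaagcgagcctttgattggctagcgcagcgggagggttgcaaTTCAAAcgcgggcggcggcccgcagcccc
The letters occurred in 17.9% of all promoter windows and in 14.4% of the tested genes with a window. Of the mitotic members with a window, 4 of 8 called higher held them, against 18 of 29 of the others (62.1%). The share was thus no lower among the mitotic genes that were not called.

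Basement membrane and integrin genes had 11 of 41 members called higher and 1 lower (median 0.46), 29.3% against 22.8% of all genes. Without GSC 1, 6 were called higher. The basement membrane is the sheet of laminins, collagen IV and proteoglycans on which epithelial cells sit. Lamc1, the laminin chain shared by most laminins, was at 9.62, 9.41, 9.30 and 9.38 in iPSC, against 6.12 and 6.56 in GSC (3.09 ± 0.16, adjusted p = 1.18e-06). Hspg2, which encodes the proteoglycan perlecan, was at 9.89, 9.61, 10.38 and 10.13 in iPSC, against 7.69 and 7.63 in GSC (2.34 ± 0.26). Agrn, which encodes agrin, rose by 1.99 ± 0.18. All iPSC lines lay above both GSC lines in these genes. Receptors rose with them: Itga5, the fibronectin receptor chain, by 1.87 ± 0.22, and Itga6, a laminin receptor chain that is also used to enrich spermatogonial stem cells, by 1.45 ± 0.31 (1.18 and adjusted p = 0.0624 without GSC 1). Ilk, the kinase-like adaptor behind integrins, was called at -1.20 ± 0.28, but not without GSC 2 (-1.13, adjusted p = 0.0617).

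Several of the 11 calls ended when 1 line was left out, among them Itga6, Lama1 and Sparc. With 1 iPSC line left out, 8 to 12 list members were called higher. Lama1, a laminin chain, was called at 1.84 ± 0.54, but not without GSC 1 (1.83, adjusted p = 0.106) or GSC 2 (1.86, adjusted p = 0.0997). Sparc, a matrix-binding glycoprotein, was called at 1.96 ± 0.71, but not without GSC 1 (1.64, adjusted p = 0.248) or GSC 2 (2.29, adjusted p = 0.111), nor without iPSC 1, 3 or 4 (adjusted p up to 0.0931). Since fibroblasts and feeder cells also make matrix, their markers are set beside these genes. Of 23 such markers tested, 1 was called higher (Acta2, whose call ended without GSC 1, at 2.26) and 1 lower (Twist1), with a median of -0.06. The share called was 8.7%, against 22.8% of all genes. The mean level of the list was 6.11, 6.35, 5.29 and 6.70 in iPSC 1 to 4, against 6.16 and 6.54 in GSC. The part of other cells in the matrix genes was not tested. In lines measured in bulk, fewer cells of a type and less RNA per cell cannot be told apart.

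Cytoskeletal genes had 18 of 56 members called higher and 3 lower (median 0.44), 37.5% against 22.8% of all genes. Tubb2b, a beta-tubulin, was at 12.59, 12.58, 12.12 and 12.52 in iPSC, against 8.89 and 8.20 in GSC (3.91 ± 0.22, adjusted p = 1.84e-06). Ezr, which encodes ezrin and links actin to the membrane of epithelial microvilli, was at 9.27, 9.01, 9.79 and 9.63 in iPSC and at 6.09 and 6.33 in GSC (3.21 ± 0.29). Both nuclear lamin B genes rose, Lmnb1 by 1.62 ± 0.13 and Lmnb2 by 1.30 ± 0.21. Genes of neurons in this list went in both directions. Stmn2, not detected on any GSC array, rose by a fitted 3.15 ± 0.46. Mapt, which encodes tau, rose by 2.92 ± 0.46, while other probes of Mapt gave 0.98 and 0.13. Nefm, a neurofilament gene, was called lower. Stmn1, the widely expressed stathmin, fell by 1.24 ± 0.19. Without iPSC 3, 5 members of the list were called lower.

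Each signalling list held members called in both directions. Among receptor tyrosine kinases, 3 of 26 were called higher and 5 lower, 30.8% against 22.8% of all genes. Ret, the GDNF receptor that the germline list also holds, was at 4.29, 4.42, 4.32 and 4.32 in iPSC, where no array detected it, against 8.54 and 8.99 in GSC. The iPSC level was lower by at least 17.9-fold (adjusted p = 5.93e-08). Igf1r, the receptor of insulin-like growth factors, was at 5.32, 5.15, 5.61 and 5.42 in iPSC, against 6.93 and 7.30 in GSC, and fell by 1.74 ± 0.17. Epha2, an ephrin receptor listed here and among ERK targets, rose by 2.26 ± 0.29 and Ror2, a receptor of WNT5A, by 1.62 ± 0.14.

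Targets and feedback inhibitors of the ERK cascade had 3 of 26 members called higher and 5 lower, 30.8% against 22.8% of all genes. Fewer were called lower without either GSC line. Egr1, an immediate early transcription factor, was at 12.40, 12.22, 11.98 and 12.49 in iPSC, against 13.60 and 13.79 in GSC (-1.42 ± 0.21, adjusted p = 0.000576), and Egr2 fell by 1.99 ± 0.37. Other immediate early genes of the list, Egr3, Fosl1, Junb and Ier3, were not called. Fos was at 10.39, 9.29, 11.81 and 10.39 in iPSC and at 12.57 and 12.91 in GSC; its call at -2.27 ± 0.68 ended without GSC 1 (-2.44, adjusted p = 0.0882) or GSC 2 (-2.10, adjusted p = 0.133). Dusp4, a phosphatase that acts on ERK, rose by 2.11 ± 0.26 with its brightest probe, detected on 1 of 4 GSC arrays, and by 0.97 with the mean of its probes. Dusp6 was not called (0.76 ± 0.32, adjusted p = 0.0852), with iPSC 3 at 8.97 inside the GSC range of 8.80 to 9.31; without iPSC 3 it was called (1.04, adjusted p = 0.00197).

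In the WNT pathway 4 of 44 members were called higher (2 without either GSC line) and 4 lower, 18.2% against 22.8% of all genes. Frizzled receptors of WNT ligands went in both directions. Fzd3 was at 4.41, 4.50, 4.43 and 4.44 in iPSC, undetected on every array, against 7.52 and 7.46 in GSC, at least 7.41-fold lower (adjusted p = 3.32e-07). Fzd2 fell by 2.17 ± 0.29, with 1 of 8 iPSC arrays detecting it. Fzd7, in contrast, was at 8.69, 8.78, 8.61 and 8.79 in iPSC and at 6.67 and 7.13 in GSC, a rise of 1.81 ± 0.21. Tcf7l1, the repressor that acts at the end of the pathway in pluripotent cells, rose by 1.62 ± 0.26 (0.11 with a dim second probe). Axin2, a general target of WNT signalling, was not called (-0.57 ± 0.36, adjusted p = 0.232).

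The BMP, activin and TGF-beta list had 6 of 43 members called higher and 1 lower (median 0.21), 16.3% against 22.8% of all genes. Without iPSC 3, 3 were called lower, and the counts also moved without GSC 2. Id2, an inhibitor of bHLH factors and a BMP target, was at 7.60, 7.57, 8.81 and 8.42 in iPSC, against 4.49 and 4.47 in GSC, where 1 of 4 arrays detected it (3.62 ± 0.34, adjusted p = 3.57e-05). Chrd, a secreted BMP antagonist, was at 5.15, 5.34, 4.85 and 5.47 in iPSC and at 7.74 and 7.57 in GSC, a fall of 2.45 ± 0.32. Tgif1, a corepressor of SMAD signalling, rose by 1.58 ± 0.14.

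Notch and hedgehog genes were called higher in 3 and lower in 4 of 24 members, 29.2% against 22.8% of all genes. Notch3, a receptor, was at 6.86, 6.87, 6.59 and 7.06 in iPSC, against 4.40 and 4.44 in GSC, where it was not detected, and was at least 4.72-fold higher (adjusted p = 8.11e-06). Notch1 rose by 1.24 ± 0.20. Hes1, a Notch target gene, was not called. Hes5, a transcriptional repressor induced by Notch, was not detected in iPSC (4.34, 4.42, 4.38 and 4.39) and stood at 6.12 and 6.22 in GSC, at least 2.97-fold lower, and Hey1 fell by 1.66 ± 0.32.

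**Figure D3:**
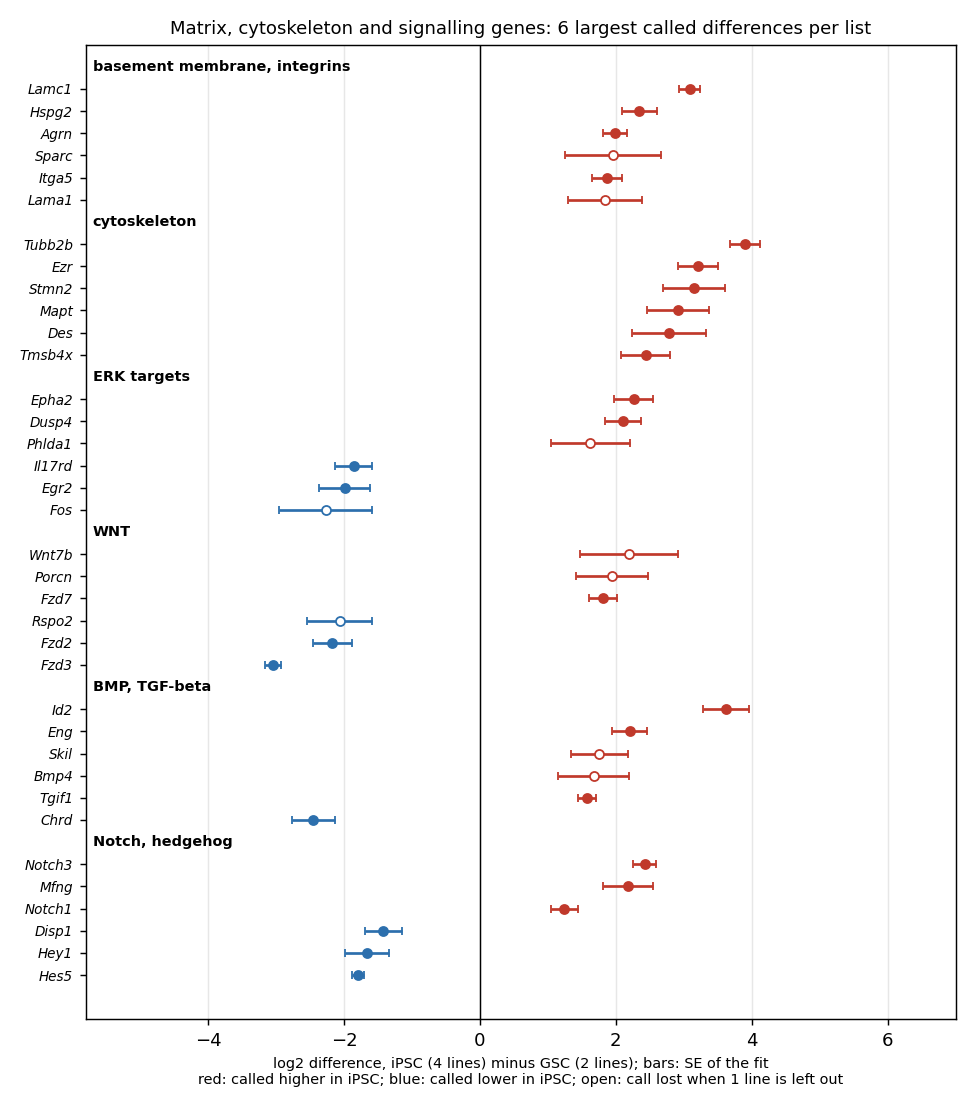
The 6 largest called differences in each of 6 lists of matrix, cytoskeletal and signalling genes, as the log2 difference iPSC minus GSC with the standard error of the fit (4 lines against 2). Matrix and cytoskeletal genes shown here lie right of 0 and signalling lists on both sides of it; open symbols lost their call when 1 line was left out.

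The small heat shock protein genes Hspb1 and Hspb8 rose and the inducible HSP70 gene Hspa1a fell. Of 37 heat shock and chaperone genes, 5 were called higher and 4 lower, near the share over all genes. Hspb1, which encodes HSP27, an actin-protecting chaperone, was at 11.30, 11.23, 11.76 and 11.49 in iPSC, against 5.22 and 5.61 in GSC (6.03 ± 0.24, 65.4-fold, adjusted p = 3.32e-07). Hspb8, a small heat shock protein of selective autophagy, rose by 3.59 ± 0.34, with 1 of 4 GSC arrays detecting it. Hspa1a, the classical stress-induced HSP70 gene, was at 4.80, 4.38, 4.76 and 5.03 in iPSC, against 7.23 and 6.99 in GSC, and fell by 2.37 ± 0.20 with 6 of 8 iPSC arrays detecting it. Groups did not overlap in any of these genes.

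Regulators of cell death had 4 of 36 members called higher and 5 lower, 25% against 22.8% of all genes. Bbc3, which encodes the pro-apoptotic protein PUMA, was at 9.15, 9.69, 10.07 and 9.73 in iPSC, against 5.81 and 6.31 in GSC (3.60 ± 0.23, adjusted p = 4.73e-06; 0.52 and 0.76 with its dimmer probes). Mcl1, an anti-apoptotic BCL2 family member, was at 11.72, 11.14, 11.81 and 11.89 in iPSC, against 8.34 and 8.48 in GSC (3.23 ± 0.27, adjusted p = 2.15e-05). Apaf1, the scaffold of the apoptosome, rose by 2.21 ± 0.22. Bik, a pro-apoptotic BH3-only gene, fell by 2.03 ± 0.28 and Ripk3, the kinase of necroptosis, by 2.00 ± 0.17. Diablo, which frees caspases from their inhibitors, fell by 1.65 ± 0.16.

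Lysosomal and autophagy genes had 8 of 57 members called higher and 4 lower, 21.1% against 22.8% of all genes. Laptm5, a lysosomal membrane protein best known from blood cells, was at 10.94, 11.03, 11.55 and 11.12 in iPSC, against 4.45 and 4.37 in GSC, where no array detected it, and its ESC value was 10.82. Of the 15 listed markers of blood cells and macrophages 12 were on the array and 7 passed the detection filter. Laptm5 was the one called of these 7, 14.3% against 22.8% of all genes. The mean of the 7 was 5.54 to 5.66 in iPSC, 4.91 and 4.99 in GSC and 5.53 in ESC. Of the 7 differences 5 were below 0, and the list's median log2 difference was -0.29. Manba, the lysosomal beta-mannosidase, was at 10.57, 11.57, 9.41 and 10.31 in iPSC and at 6.25 and 6.71 in GSC (3.98 ± 0.49). Ctsf, which encodes cathepsin F, fell by 2.58 ± 0.34.

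Apart from the germline list, MHC class I presentation had the largest share called lower, 7 of 22 members against 1 higher (median -0.54), beside 11.7% of all genes. Class I molecules present peptides of the cell to T cells. Tapbp, which loads peptides onto them, was at 5.61, 5.26, 5.49 and 5.52 in iPSC, against 7.48 and 7.23 in GSC (-1.88 ± 0.19, adjusted p = 6.49e-05). H2-M3, a non-classical class I gene, was at 5.05, 5.29, 4.76 and 4.80 in iPSC, against 7.22 and 7.0 in GSC (-2.14 ± 0.27). The proteasome activator genes Psme1 and Psme2 fell by 1.36 ± 0.25 and 1.12 ± 0.16. Psmb10, an immunoproteasome subunit, was at 8.04, 8.80, 7.0 and 8.09 in iPSC and at 10.58 and 9.87 in GSC; its call at -2.24 ± 0.52 ended without GSC 1 (-1.89, adjusted p = 0.0749).

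B2m, the constant chain of class I molecules, was not called (-0.86 ± 0.85, adjusted p = 0.45), with iPSC values of 9.01 to 10.38 and GSC values of 10.62 and 10.88. H2-Bl, another class I gene, rose by 2.67 ± 0.53, and class I genes are close paralogs whose probes may cross-hybridise. Cd274, which encodes the T cell inhibitor PD-L1, was among the 12 largest falls: it was at 4.68, 4.82, 5.96 and 5.22 in iPSC, against 9.94 and 10.15 in GSC (-4.88 ± 0.31, adjusted p = 4.43e-06). Without background correction, 2 members of the list were called lower.

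Zinc transporters gave the largest differences among 41 genes of metal handling. Of these, 6 were called higher and 5 lower, 26.8% against 22.8% of all genes, and fewer were called lower without GSC 2. Slc39a4, an intestinal-type zinc importer, was at 9.07, 8.66, 10.12 and 9.35 in iPSC, against 4.65 and 4.57 in GSC, where 2 of 4 arrays detected it (4.69 ± 0.47, adjusted p = 5.99e-05). Slc39a6, another importer, was at 8.24, 8.02, 7.99 and 8.35 in iPSC and at 10.74 and 10.76 in GSC (-2.60 ± 0.23), and Slc30a1, a zinc exporter, fell by 1.74 ± 0.26. Tfrc, the receptor for iron-loaded transferrin, rose by 1.37 ± 0.29.

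RNA-binding regulators had 7 of 40 members called higher and 6 lower, 32.5% against 22.8% of all genes. Rbpms2 was at 9.16, 9.63, 9.87 and 9.36 in iPSC, against 6.33 and 6.87 in GSC (2.91 ± 0.21, adjusted p = 7.83e-06), and its paralog Rbpms, also a splicing regulator, rose by 2.46 ± 0.21. Celf2 was at 5.96, 5.87, 6.34 and 6.57 in iPSC and at 8.36 and 8.26 in GSC (-2.13 ± 0.19). Msi2, a translational regulator of stem cells, fell by 2.04 ± 0.27. Ago2, which holds the mature miRNA, rose by 1.29 ± 0.20.

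Chromatin remodellers moved in 6 of 38 members, 4 higher and 2 lower (1 lower without GSC 1, GSC 2 or iPSC 3), 15.8% against 22.8% of all genes. Smarcad1, a remodeller involved in heterochromatin, was at 9.15, 9.39, 8.49 and 8.73 in iPSC, against 6.66 and 6.57 in GSC (2.33 ± 0.23). Mta3, a subunit of the NuRD complex, rose by 2.17 ± 0.37. Smarcd3, a SWI/SNF subunit of heart and muscle, was at 4.79, 5.14, 4.36 and 4.53 in iPSC, with 5 of 8 arrays detecting it, and at 7.06 and 6.72 in GSC (-2.18 ± 0.25). Retinoid handling was little represented, with 1 of 14 members called higher (0 without GSC 2) and 2 lower (1 without GSC 1). The share called was 21.4%, against 22.8% of all genes. Rbp4, the plasma retinol carrier, fell by 1.46 ± 0.10 and was detected on 1 of 8 iPSC arrays.

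**Figure D4:**
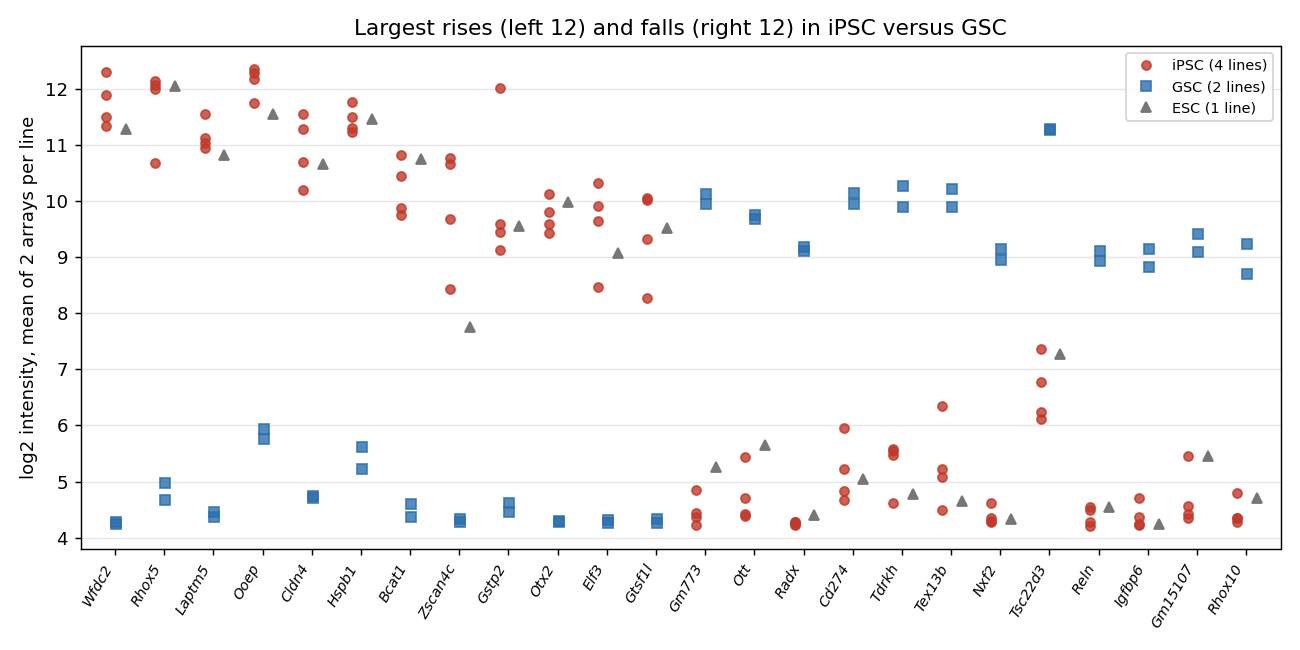
Log2 intensity of the 12 genes with the largest rise and the 12 with the largest fall in iPSC versus GSC outside the pluripotency and germline lists; each point is 1 line (mean of 2 arrays), with iPSC left, GSC in the middle and the ESC line right. No gene has overlapping iPSC and GSC values, as the selection required, and in iPSC Gstp2 is spread from 9.13 to 12.02.

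The 24 genes with the largest differences were chosen by size and by non-overlap, so their values are a description. Among the rises, Wfdc2, a secreted protease inhibitor of epithelia, was at 11.34 to 12.30 in iPSC, against 4.24 and 4.28 in GSC, where it was not detected. Ooep, a maternal-effect gene of the oocyte, was at 11.75 to 12.36 in iPSC and at 5.75 and 5.94 in GSC. Elf3, an epithelial ETS factor, was at least 31.5-fold higher and Gtsf1l, related to a piRNA pathway gene, at least 28.0-fold higher in iPSC. Gstp2, a glutathione S-transferase, was at 12.02 in iPSC 3 and at 9.13 to 9.59 in the other iPSC lines, against 4.46 and 4.62 in GSC.

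Genes of the X chromosome were frequent among the largest falls. In RefSeq's GRCm38.p6 table, 8 of the 12 largest falls lie on the X chromosome (Gm773, Ott, Radx, Tex13b, Nxf2, Tsc22d3, Gm15107 and Rhox10), against 1 of the 12 largest rises (Rhox5). Over all 372 tested X-linked genes, 15.3% were called lower and 13.2% higher, with a median log2 difference of 0.04. On chromosome 9, 16% were called lower, and on the remaining autosomes 8.82% to 14.8%. Ott was at 4.39, 4.70, 5.45 and 4.42 in iPSC, against 9.69 and 9.75 in GSC, and Rhox10, a reproductive homeobox gene, at 4.35, 4.35, 4.79 and 4.27 in iPSC, against 9.24 and 8.71 in GSC. Of the 8 iPSC arrays, 4 detected Ott and 2 detected Rhox10.

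Tsc22d3, also called GILZ and induced by glucocorticoids, differed from these testis genes in being detected on every array: it was at 6.24, 6.11, 7.36 and 6.77 in iPSC, against 11.27 and 11.28 in GSC (-4.66 ± 0.32). Reln, a secreted matrix protein of neuronal migration, was at 4.50, 4.54, 4.20 and 4.28 in iPSC and at 8.93 and 9.11 in GSC, with 2 of 8 iPSC arrays detecting it. Igfbp6, which binds insulin-like growth factors and most tightly IGF2, was at 4.24, 4.23, 4.70 and 4.37 in iPSC and at 9.15 and 8.82 in GSC, with 1 of 8 iPSC arrays detecting it.

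The iPSC lines did not share one level in every gene. The 8 genes that varied most between them were Trh, Lefty1, Dazl, Tex19.2, Taf7l, Krt18, Mmp3 and Usp18, and they were selected for that spread. Trh, the thyrotropin-releasing hormone gene, was at 10.17, 12.19, 5.33 and 8.08 in iPSC 1 to 4, against 4.68 and 4.52 in GSC, and was not called (adjusted p = 0.0912). Lefty1, an antagonist of NODAL, was at 5.15 in iPSC 3 and at 9.72 to 10.42 in the other iPSC lines, against 4.41 and 4.44 in GSC. Tex19.2, a germ cell gene of mice, reached 10.43 in iPSC 3, while the other iPSC lines held 5.62 to 7.06 and the GSC lines 5.43 and 5.38. In each of these genes iPSC 3 lay at one end of the iPSC values. The line gPSC 3 lay at the same end of the gPSC values: it was at 6.64 in Trh (11.26 to 11.94 in the other gPSC lines), at 6.66 in Lefty1 (9.99 to 11.50) and at 8.61 in Tex19.2 (6.0 to 7.54). It was also the highest gPSC line in Dazl (9.94, with 5.93 to 7.55 in the others) and Krt18 (8.58, with 5.34 to 6.38), and the lowest in Usp18 (4.30, with 7.81 to 9.26). The labels do not say what lines of the same number share.

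**Figure D5:**
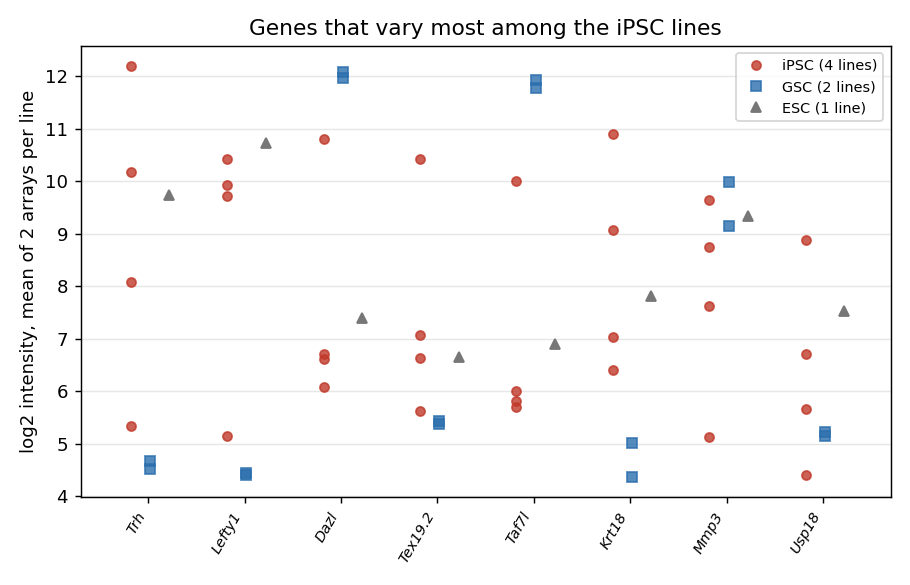
Log2 intensity of the 8 genes with the largest spread between the iPSC lines; each point is 1 line (mean of 2 arrays), with iPSC left, GSC in the middle and the ESC line right. In Lefty1, Dazl, Tex19.2 and Taf7l, 1 iPSC line (iPSC 3) is separated from the other three.

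Krt18 and its partner keratin Krt8, of simple epithelia, were also highest in iPSC 3. Krt8 was at 8.22, 7.66, 11.80 and 9.89 in iPSC, against 4.86 and 5.30 in GSC; its call at 4.31 ± 1.13 ended without GSC 1 (4.09, adjusted p = 0.0852) or GSC 2 (adjusted p = 0.0604). Krt18 was at 7.03, 6.40, 10.90 and 9.08 in iPSC and at 4.37 and 5.01 in GSC, and its call at 3.66 ± 1.23 ended without GSC 1 (adjusted p = 0.183), GSC 2 (0.116), iPSC 3 (2.81, 0.052) or iPSC 4 (0.0787). Markers of extraembryonic endoderm and trophoblast, to which both keratins belong, had 4 of 19 members called higher (2 without either GSC line) and 1 lower. The share called was 26.3%, near the 22.8% of all genes. The mean level of these markers was 6.66 in iPSC 3, 5.81 to 6.15 in the other iPSC lines, 5.07 and 5.13 in GSC and 5.90 in ESC. Gata6, an endoderm factor, was at 7.61, 6.66, 8.37 and 6.59 in iPSC and was not detected in GSC, at least 6.50-fold higher in iPSC (adjusted p = 0.00541). Afp, also an endoderm marker, was the member called lower, at -1.57. Without background correction its difference was -0.61 and no longer a call.

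Mmp3 and Usp18 were lowest in iPSC 3 and highest in iPSC 2. Mmp3, a matrix metalloproteinase of fibroblasts, was at 7.63, 9.64, 5.14 and 8.75 in iPSC and at 9.16 and 9.99 in GSC. Usp18, an interferon-induced protease, was at 6.71, 8.89, 4.40 and 5.67 in iPSC and at 5.23 and 5.14 in GSC. The groups overlapped in both genes, and neither was called (adjusted p = 0.364 for Mmp3 and 0.534 for Usp18). Dcn, a fibroblast proteoglycan, followed the order of Mmp3 with 7.04, 8.71, 5.50 and 8.17 in iPSC, against 7.51 and 8.41 in GSC (-0.61 ± 1.20, or 0.007 without iPSC 3). The part of feeder cells in the spread of Mmp3 and Dcn was not tested.

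The gPSC lines, germline-derived pluripotent lines of the same strain background, were set beside iPSC for the same genes. Limma called 0.0% of all genes between iPSC and gPSC (4 lines each), while 830 genes had an unadjusted p below 0.05. Of the 270 called members of the lists other than pluripotency and germline, the largest difference between iPSC and gPSC was that of Krt18 (1.79 ± 1.01, adjusted p = 0.627). A p above the threshold does not show that the groups have the same level.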

How the data were processed

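The deposited table gives the intensity of 25697 probes on each array, not normalized, and the authors' detection p-value beside it. The authors' own deposited values, on a log2 scale, were used as an alternative. BeadStudio 3.2 and lumi are the tools listed in the submitters' processing notes. Intensities were corrected and quantile normalized with neqc (limma 3.58.1, R 4.3.3, offset 16, negative controls inferred from detection p-values). The 2 arrays of a line were averaged. A probe was kept when some line had it detected (p below 0.05) on its a and b array alike (15917 probes), and the brightest probe stood for a gene. Of all probes 23978 name 1 gene, 0 several and 1719 none. A single model over all 13 lines held a mean for each group (7 residual degrees of freedom). Its p-values set a difference against the spread between lines, pooled over the groups. With 2 GSC lines, this spread came mostly from the iPSC and gPSC lines. The fit treats lines as independent, although iPSC 3 and gPSC 3 deviated together (r = 0.68). Precision is limited by the number of lines.

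Folds "at least" are against the detection floor where no array of the lower group detected any probe of the gene. The members and the gene lists were chosen with earlier results of these data known. Named genes were the 12 largest rises and falls with non-overlapping lines, called list members, key pathway members and the 8 genes most variable between iPSC lines. List members beyond the 6 largest differences of a list were chosen after their values were seen. The fit was tested on simulated data. Sequences are RefSeq's (GRCm38.p6).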

Additional observations from a re-analysis of the deposited data

Results flagged for a closer look

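Lines were flagged by the gap between the extreme line and its neighbour relative to the range. By chance this rule flags about 1 in 20 groups of independent values. The named genes share the same 4 iPSC lines and include the 8 chosen for their spread between them, so their share cannot be set against that figure. Among 236 named genes, 20 (8.47%) had 1 iPSC line far from the other 3. In 14 of the 20 that line was iPSC 3, and in 7 of these 14 genes (Dazl, Taf7l, Tktl1, Gstp2, Gsto2, Rhox10 and Lefty1) gPSC 3 was at the same end among the 4 gPSC lines, for example at 7.47 in Taf7l (5.31 to 6.63 in the others) and at 10.66 in Gstp2 (8.87 to 9.66). Its values were 10.8 in Dazl (6.07 to 6.71 in the others), 10 in Taf7l (5.69 to 6.0), 5.97 in Sohlh1 (4.77 to 4.79) and 5.82 in Tktl1 (4.44 to 4.66), all germ cell genes that it held higher. It also held Gstp2 higher at 12.02 (9.13 to 9.59), Gsto2 at 5.33 (4.74 to 4.80), Nxf2 at 4.62 (4.29 to 4.34), Rhox10 at 4.79 (4.27 to 4.35), the damage-signalling gene Trp53bp1 at 9.81 (9.12 to 9.20) and Ilk at 8.85 (8.02 to 8.12). It held Lefty1 lower at 5.15 (9.72 to 10.42), Rrm2 at 8.27 (9.15 to 9.28), Tkt at 11 (11.25 to 11.28) and Tubb2b at 12.12 (12.52 to 12.59).

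Of the other lines, iPSC 2 was at 7.10 in Crabp1, a retinoic acid binding protein gene (5.90 to 6.06 in the others), at 10.76 in Tfap2c (11.17 to 11.23), at 11.42 in Lmnb1 (11.16 to 11.19) and at 10.40 in Tcf7l1 (9.82 to 9.88). iPSC 4 was at 10.68 in Rhox5 (12.0 to 12.14) and at 4.63 in Tdrkh (5.47 to 5.58).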

How the results depend on the processing

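Of 220 named genes that were called, 142 kept their call and direction under all 18 alternatives, and 38 more lost it only under log2 quantile normalization without background correction. That setting called 580 genes higher and 555 lower in iPSC, of which 580 and 552 were among the 1188 and 1244; it called 8 of the one-carbon, 5 of the tricarboxylic acid cycle, 7 of the nucleotide, 6 of the redox, 6 of the mitotic, 7 of the matrix and 14 of the cytoskeletal genes higher. The authors' processed values called 1682 higher and 1868 lower, with 1187 and 1230 shared. Leaving out single lines gave 980 to 1221 genes higher and 1068 to 1276 lower; without GSC 1, 6 matrix genes and 9 redox genes were called higher, against 11 and 15, and without iPSC 3 the mitotic and one-carbon counts stayed at 11. Named calls were lost in 24 genes without GSC 1, in 28 without GSC 2 and in 5 to 8 without an iPSC line. The replicate block on line number gave 1187 higher and 1235 lower; across genes, same-numbered iPSC and GSC lines deviated from their group means at r = 0.09 and -0.01. Among iPSC and gPSC lines, number 3 gave r = 0.68 and the other numbers -0.07 each, so of these only iPSC 3 and gPSC 3 deviated together. With 2 GSC lines, the deviations of GSC 1 and GSC 2 from their mean mirror each other. These correlations therefore cannot decide whether the numbers pair the lines. Dcn, not called at -0.61, lay between -1.06 and 0.007 with 1 line omitted, above 0 without iPSC 3. The cause of these shifts was not tested. Signals near background limit the size of differences in genes that some arrays of a group did not detect.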
